A study of Mus musculus with 17 samples.

Results

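Mammary glands labelled CERM, which carry an estrogen receptor transgene, were compared with glands labelled BRCA, which lack Brca1 function in part of their cells, once in single-end and once in paired-end sequencing. Both genotypes were nulliparous female C57Bl/6 mice, and whole glands were used; ages are not given. CERM has the genotype tet-op-Esr1MMTV-rtTA: the Esr1 gene of estrogen receptor alpha behind a tetracycline operator, switched by the rtTA activator under the MMTV promoter, which is active mainly in mammary epithelium. BRCA has the genotype Brca1fl11/fl11/MMTV-Cre/p53+/-: Cre under the same promoter removes the floxed exon 11 of Brca1, and 1 allele of Trp53 is inactive in the whole animal. No drug is given for these samples, and whether doxycycline, which drives rtTA, was supplied is unstated in the labels. The genotypes share the MMTV promoter and no engineered allele. The compared genes were those with 1 gene symbol of their own and an FPKM of at least 1 in 2 or more of the 4 columns, which left 11967 of the 20420 loci with their own symbol. FPKM is the number of sequenced fragments scaled to transcript length and to the mapped fragments of the library. Just inside this limit were Mageb16, listed at 0 in both CERM columns and at 1.00 and 1.12 FPKM in BRCA, and Rgs9, whose second highest value was 1.00 FPKM. Just outside it were Mmp17 and Olig1, whose second highest values were 1.00 and 1.00 FPKM.

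The mammary gland is a branched epithelium of luminal and basal cells within a fat pad that also holds fibroblasts, vessels, nerves, immune cells and, in some pads, a lymph node. Estrogen receptor alpha acts in hormone-sensing luminal cells, which answer estrogen with paracrine signals such as amphiregulin and, through the progesterone receptor, RANK ligand, and so drive growth of their neighbours. Brca1 serves DNA repair by homologous recombination, and its loss acts mainly on luminal progenitors. The p53 protein encoded by Trp53 halts or kills cells with damaged DNA. In a whole gland, fewer cells of a type and less RNA per cell cannot be told apart.

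The table holds 1 FPKM column for each genotype and layout, so each value below is the authors' single value for a group, with no spread between replicates and no p-value. The labels list 9 libraries behind the 4 columns, 2 CERM and 2 BRCA in the single-end ones and 3 CERM and 2 BRCA in the paired-end ones, out of 17 in the series. Single-end sequencing reads a fragment from one end and paired-end sequencing from both. The labels' protocol says that libraries were run by both methods, so the layouts may hold the same animals, and a difference seen in both may be repeated sequencing rather than an independent cohort. Differences are given as log2(FPKM + 1) of CERM minus that of BRCA, a scale that understates the ratio of low genes. Negative values mean lower in CERM. A gene was called when it was at least 2-fold apart on this scale. Where 2 values are set against each other, the first is CERM and the second BRCA, in FPKM, and where 2 differences are given, the first is single-end. Median FPKM over the compared genes was 9.07 in CERM and 9.59 in BRCA single-end, and 8.67 and 9.28 paired-end. The depth of the libraries is unknown, and 67 of the genes were listed at 0 in at least 1 column, where a 0 can be a failed estimate.

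The engineered genes were nearly alike in the 2 layouts. Esr1 stood at 8.49 against 6.59 FPKM single-end and 8.41 against 6.48 FPKM paired-end, a difference of 0.32 and 0.33. CERM was above BRCA in both layouts but by far less than 2-fold, so these values show no clear over-expression of the transgene. Brca1 stood at 0.661 against 3.28 FPKM single-end and 0.702 against 3.29 FPKM paired-end, with differences of -1.37 and -1.33. It was higher, not lower, in BRCA, and these FPKM values cover the locus as 1 unit, so they say nothing of exon 11. Trp53 stood at 28.0 against 12.3 FPKM single-end and 24.98 against 12.1 FPKM paired-end. Its differences, 1.12 and 0.98, passed 2-fold in the single-end columns only, with the lower values in BRCA, the genotype with 1 inactive allele. These values do not settle either label, and CERM and BRCA name below the columns that carry those labels. Mouse Cyp19a1, the aromatase gene, was listed at 0 in all 4 columns.

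In the single-end columns 361 genes were at least 2-fold higher in CERM (3.02% of those compared) and 362 were at least 2-fold lower (3.02%). In the paired-end columns 296 were higher (2.47%) and 355 lower (2.97%). Both layouts called 157 genes higher (1.31%) and 233 lower (1.95%), in all 390 genes with 1 direction. They are 53.9% of the single-end calls and 59.9% of the paired-end calls. Genes lower in CERM were kept more often: 64.4% of the single-end calls of lower genes were repeated, against 43.5% of those of higher genes. Another 11 genes were called in opposite directions, 322 in the single-end columns alone and 250 in the paired-end columns alone. Of the 322 and 250 genes, 283 and 207 had the same sign in the other layout, and 229 and 144 were at least 1.5-fold apart there in that direction. A gene that reached 1 FPKM in only 1 genotype was admitted through the columns where it is high, so its direction was fixed by that choice. Among the 11049 genes with at least 1 FPKM in all 4 columns, 92 were called higher (0.833%) and 128 lower (1.16%) in both layouts. For gene lists counted below, the number called in both layouts is also given over these genes where it differs. Large differences were repeated more often: of 112 genes at least 4-fold apart single-end, 88 were also called in the same direction paired-end, and of 106 at least 4-fold apart paired-end, 76 single-end. Over all genes the median difference was -0.06 in both layouts. Across the 11967 genes, which are not independent replicates, the differences of the 2 layouts had a Pearson r of 0.61 and a Spearman rho of 0.76, and Pearson r was 0.78 without the 80 loci of microRNAs and small nucleolar RNAs. The 2 sides may rest on the same libraries.

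**Figure D1:**
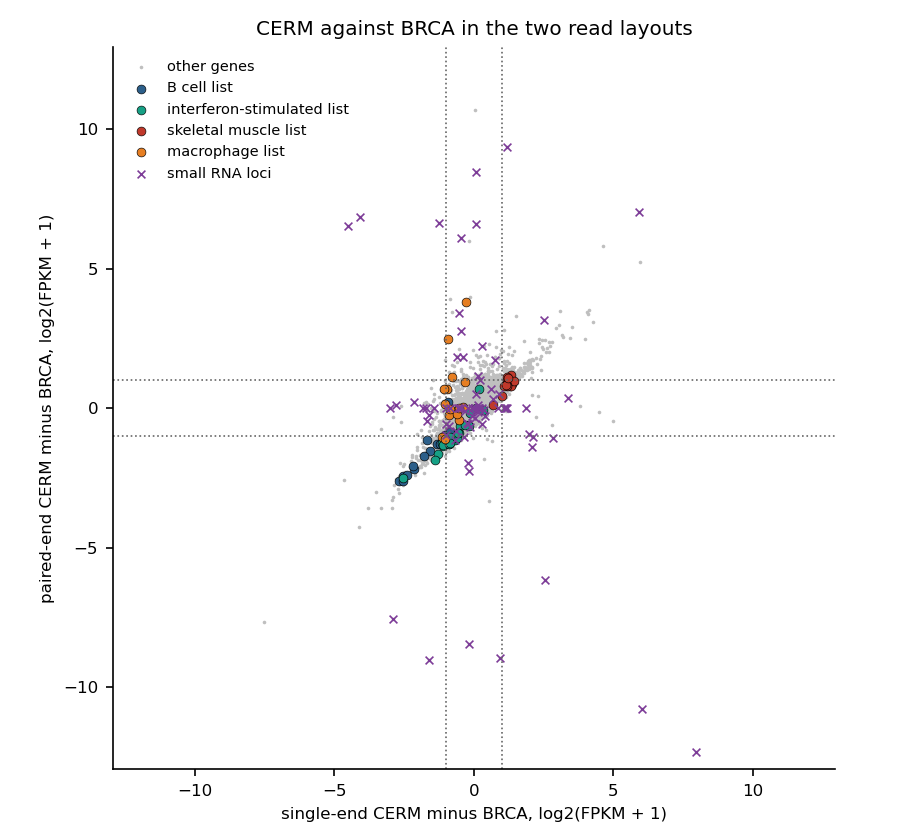
CERM minus BRCA on the log2(FPKM + 1) scale, single-end on the horizontal and paired-end on the vertical axis, with 1 point per gene (11967 genes) and dotted lines at 2-fold. B cell genes lie low on both axes, skeletal muscle genes high on both, some macrophage genes are low on one axis and high on the other, and small RNA loci scatter widely.

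Among genes with a known name and no value of 0, ranked by the smaller of the 2 differences, the one most apart was a, the agouti coat colour gene, at 0.237 against 227 FPKM single-end and 0.282 against 258 FPKM paired-end, with differences of -7.53 and -7.66. Coat-colour strains differ at this locus, and the labels give 1 strain, C57Bl/6, for both genotypes. Next among the genes lower in CERM came Pglyrp1, which encodes an antibacterial peptidoglycan-binding protein of neutrophil granules, at 2.93 against 66.9 FPKM single-end and 2.50 against 67.1 FPKM paired-end. Marco, a scavenger receptor gene of macrophages, stood at 0.108 against 14.5 FPKM single-end and 0.249 against 13.8 FPKM paired-end. All 3 were near or below 3 FPKM in both CERM columns and well above 10 FPKM in both BRCA columns. Ccl8, a chemokine gene that draws monocytes and T cells, stood at 34.2 against 351 FPKM single-end and 23.8 against 294 FPKM paired-end, and Ccl20, which draws CCR6-bearing lymphocytes and dendritic cells, at 0.110 against 6.07 FPKM single-end and 0.0450 against 5.06 FPKM paired-end. Sftpd, the gene of the defence collectin surfactant protein D, stood at 2.59 against 26.6 FPKM single-end and 1.82 against 26.6 FPKM paired-end, and Gbp1, an interferon-induced guanylate-binding protein gene, at 2.24 against 23.4 FPKM single-end and 1.49 against 21.9 FPKM paired-end. Ngp, a neutrophil granule gene, stood at 0.121 against 6.79 FPKM single-end and 0.434 against 7.26 FPKM paired-end. In each of these genes too, the BRCA values were far above the CERM values and changed little between layouts. Glycam1 and Cd79a, also among the genes with the largest differences, are described with the lymphocytes below. Ctsr, a cathepsin gene, stood at 0.0244 against 10.7 FPKM single-end and 0.276 against 9.33 FPKM paired-end, H28, a minor histocompatibility antigen gene, at 0.0360 against 6.46 FPKM single-end and 0.00944 against 5.82 FPKM paired-end, and the hydrolase gene Abhd1 at 1.28 against 12.3 FPKM single-end and 0.636 against 10.2 FPKM paired-end. For each of these 13 genes, both BRCA values lay above both CERM values, by a larger ratio than the layouts differed within a genotype. The ranking by the smaller difference picks such genes, so this describes the choice and is no separate sign of repeatability. Of the 13, a, Marco, Ccl20, Ngp, Ctsr and H28 were also below 1 FPKM in both CERM columns. They were admitted through BRCA alone, which fixed their direction.

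**Figure D2:**
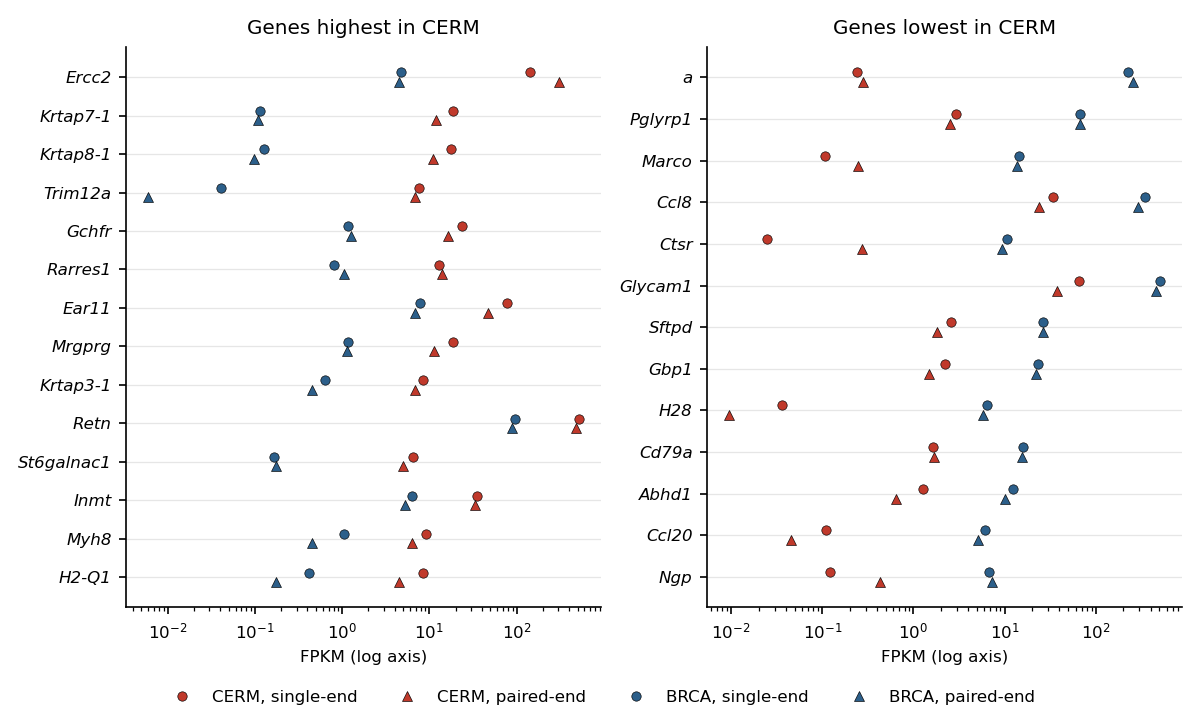
FPKM on a log axis of the 14 genes highest (left) and 13 of the 14 lowest (right) in CERM among those called in both layouts, with circles for single-end, triangles for paired-end, red for CERM and blue for BRCA. The circle and triangle of a genotype lie close together beside the gap between genotypes in nearly all rows, which the ranking favours. Agouti (a) has the widest gap, 0.24 and 0.28 FPKM in CERM against 227 and 258 in BRCA.

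B cell genes were lower in CERM. Of 14 genes, 12 were called lower single-end and 11 paired-end, the same 11 in both, against 1.95% of all genes, and none was called higher. However, 10 of the 14 were below 1 FPKM in both CERM columns and so were admitted through BRCA alone. Of the 4 genes with at least 1 FPKM in all columns, 3 were called lower in both layouts. The medians of the 14 genes were -1.73 and -1.63, where all genes had -0.06. Cd79a, which encodes 1 chain of the signalling pair of the B cell receptor, stood at 1.62 against 16.003 FPKM single-end and 1.68 against 15.5 FPKM paired-end, and its partner Cd79b at 2.19 against 13.2 FPKM single-end and 2.08 against 12.9 FPKM paired-end. Ms4a1, the CD20 gene, stood at 0.348 against 6.83 FPKM single-end and 0.335 against 6.21 FPKM paired-end, and Spib, a transcription factor gene of B cells and plasmacytoid dendritic cells, at 0.279 against 6.37 FPKM single-end and 0.229 against 6.61 FPKM paired-end. CERM was 5-fold or more below BRCA in every one of these 8 pairs of values. The exception to the list was Blnk, an adaptor gene of B cell receptor signalling that macrophages also express, at 4.78 against 10.04 FPKM single-end and 11.5 against 9.84 FPKM paired-end. It was lower in CERM single-end and slightly higher paired-end. Among plasma cell genes 2 of 7, Derl3 and Pou2af1, were called lower in both layouts, against 1.95% of all genes, and the medians were -1.34 and -0.77. Igj, the joining chain gene of secreted antibodies, was called lower single-end only, at 82.8 against 223 FPKM single-end and 119 against 206 FPKM paired-end.

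Genes of T cells were lower by less. The medians of the 13 genes were -0.77 and -0.79, and 3 were called lower in both layouts, against 1.95% of all genes, with none higher. Cd4 and Cd5 were admitted through BRCA alone, and 1 of the 8 genes with at least 1 FPKM in all columns, Lck, was called in both. Cd4, the coreceptor gene of helper T cells, stood at 0.989 against 6.21 FPKM single-end and 0.793 against 6.20 FPKM paired-end, with differences of -1.86 and -2.01. Cd8a, the coreceptor gene of cytotoxic T cells, stood at 3.09 against 2.51 FPKM single-end and 2.09 against 2.37 FPKM paired-end and was not called in either layout. Cd5, an inhibitory receptor gene of T cells, stood at 0.529 against 3.30 FPKM single-end and 0.376 against 3.11 FPKM paired-end, and Lck, the kinase gene of T cell receptor signalling, at 3.68 against 8.70 FPKM single-end and 2.92 against 8.14 FPKM paired-end. The Lck call is near the limit: its single-end difference was -0.98 after median-ratio scaling of the columns and -0.95 after quantile normalization. None of 8 genes of cytotoxic lymphocytes was called in both layouts. Gzmk, a granzyme gene, was higher in CERM at 1.70 against 0.247 FPKM single-end and 1.17 against 0.106 FPKM paired-end, past 2-fold in the single-end columns only. It was admitted through CERM alone.

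Some genes of lymph nodes were lower in CERM as well. Glycam1, a mucin gene of lymph node venules whose product is also secreted into milk, stood at 65.5 against 512 FPKM single-end and 37.2 against 458 FPKM paired-end. Cxcl13, the chemokine gene that gathers B cells in follicles, stood at 3.79 against 15.2 FPKM single-end and 2.53 against 13.4 FPKM paired-end, and Ccr7, the homing receptor gene of naive T cells and mature dendritic cells, at 0.775 against 5.70 FPKM single-end and 0.577 against 5.71 FPKM paired-end. Ccr7, below 1 FPKM in both CERM columns, was admitted through BRCA alone. Of the 7 compared genes of the lymphatic and lymph node list, 2 were called lower in CERM in both layouts, Glycam1 and Cxcl13, against 1.95% of all genes, and none higher. The list medians were -0.31 and -0.29. The summed FPKM of the list was 92.5 and 60.3 in CERM and 556 and 499 in BRCA, most of it from Glycam1. Chst4, a sulfotransferase gene of lymph node venules, fell short of the FPKM limit, with 0 and 0.0029 in CERM and 0.798 and 0.977 in BRCA. Madcam1, an addressin gene, was not called, at 2.36 against 1.47 FPKM single-end and 1.64 against 1.35 FPKM paired-end. The part of lymph node tissue in the lymphocyte values was not tested.

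Of 11 neutrophil genes 6 were called lower in CERM in both layouts, against 1.95% of all genes, and none higher, with medians of -1.63 and -1.59. Ngp and Camp were admitted through BRCA alone, and of the 6 genes with at least 1 FPKM in all columns 2 were called in both. Of these 2, the receptor gene Csf3r had a single-end difference of -0.998 after quantile normalization, just short of 2-fold. Besides Ngp, the 6 called genes included Camp, an antimicrobial peptide gene, at 0.0968 against 3.58 FPKM single-end and 0.213 against 2.95 FPKM paired-end, Il1b, the interleukin 1 beta gene, at 1.18 against 5.73 FPKM single-end and 0.712 against 4.94 FPKM paired-end, and Retnlg at 0.894 against 7.77 FPKM single-end and 1.27 against 6.75 FPKM paired-end. S100a9, which encodes one subunit of calprotectin, stood at 15.5 against 92.2 FPKM single-end and 13.0 against 74.1 FPKM paired-end. Its partner S100a8 stood at 11.4 against 75.3 FPKM single-end and 42.6 against 61.1 FPKM paired-end, so the single-end columns had both subunits lower in CERM, and the paired-end columns only S100a9 past 2-fold. The CERM value of S100a8 was 3.75 times as high paired-end as single-end, while that of S100a9 was 0.835 times as high.

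Of 13 CC chemokine genes 5 were called lower in CERM in both layouts, Ccl8, Ccl20, Ccl22, Ccl12 and Ccl17, against 1.95% of all genes, and none was called higher in both. Their medians were -0.91 and -0.76. Ccl17 and Ccl20 were admitted through BRCA alone, and of the 10 genes with at least 1 FPKM in all columns 2 were called lower in both. Ccl22 and Ccl17, which draw CCR4-bearing T cells, stood at 0.922 against 6.30 FPKM single-end and 1.26 against 6.21 FPKM paired-end and at 0.733 against 3.43 FPKM single-end and 0.341 against 3.0 FPKM paired-end. Of 9 CXC chemokine genes 3 were called lower in both layouts, against 1.95% of all genes, or 2 of the 8 with at least 1 FPKM in all columns, and the medians were -0.35 and -0.14. These were Cxcl13, Cxcl1, which draws neutrophils, at 0.453 against 3.64 FPKM single-end and 0.697 against 3.74 FPKM paired-end, and the interferon-induced Cxcl10 at 2.01 against 7.10 FPKM single-end and 1.59 against 6.03 FPKM paired-end. Cxcl15 was instead higher in CERM, at 2.82 against 1.37 FPKM single-end and 5.58 against 1.19 FPKM paired-end, past 2-fold in the paired-end columns only. A member that did not repeat was Ccl9, a macrophage chemokine gene, at 11.7 against 20.4 FPKM single-end and 45.8 against 19.1 FPKM paired-end: the differences were -0.75 and 1.22, with opposite signs. Ccl24, an eosinophil chemokine gene, was higher in CERM, at 7.83 against 2.64 FPKM single-end and 5.74 against 2.86 FPKM paired-end, past 2-fold in the single-end columns only.

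Interferon-stimulated genes were lower in CERM in both layouts and by more in the paired-end columns. Of 22 genes, 6 were called lower single-end and 12 paired-end, and all 6 were among the 12, against 3.02%, 2.97% and, in both, 1.95% of all genes. None was called higher. Mx1 and Oas3 were admitted through BRCA alone, and of the 19 genes with at least 1 FPKM in all columns 3 were called lower in both. The medians were -0.63 and -1.07, and 20 of the 22 had a lower difference paired-end than single-end, as had 6614 of the 11967 genes. Xaf1, an interferon-induced gene of cell death, stood at 4.69 against 32.3 FPKM single-end and 4.08 against 27.9 FPKM paired-end, with differences of -2.55 and -2.51. Isg15, a ubiquitin-like modifier gene, stood at 11.6 against 29.4 FPKM single-end and 8.82 against 29.4 FPKM paired-end, and Ifi44 at 6.16 against 17.8 FPKM single-end and 3.91 against 16.8 FPKM paired-end. The antiviral GTPase genes Mx1 and Mx2 and the 2-5 oligoadenylate synthetase gene Oas3, which stood at 0.949 against 3.18 FPKM single-end and 0.686 against 3.25 FPKM paired-end, were the others called in both. The call of Mx1 had a single-end difference of -0.98 and that of Oas3 one of -0.95 after quantile normalization. Irf7, which amplifies the response, stood at 26.4 against 40.3 FPKM single-end and 17.3 against 38.0 FPKM paired-end and was called paired-end only. Not every member followed: Rsad2 stood at 3.05 against 2.81 FPKM single-end and 2.85 against 2.85 FPKM paired-end, and Ifi27l2a at 777 against 678 FPKM single-end and 1008 against 631 FPKM paired-end.

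The promoters of 3 of these genes are shown because the genes moved together in both layouts while their promoters differ in a motif. The interferon-stimulated response element, bound by interferon-activated transcription factors, has the core GAAANNGAAA, which was searched on both strands of the 300 bases around each start site in RefSeq's GRCm38.p6 promoters (overlapping matches were counted, and a gene with several starts was counted once). The 150 bases before the start site are given 5′ to 3′ on the strand of the gene, with matches in capitals. Isg15 lies on the minus strand (chr4:156200819-156200968) and holds 3 overlapping matches. Oas3 is also on the minus strand (chr5:120777660-120777809) and holds 1. Xaf1 is on the plus strand (chr11:72301479-72301628) and holds none in this window.
Isg15: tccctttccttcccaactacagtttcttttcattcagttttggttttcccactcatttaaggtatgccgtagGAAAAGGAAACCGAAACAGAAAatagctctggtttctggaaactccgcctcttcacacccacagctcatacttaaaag
Oas3: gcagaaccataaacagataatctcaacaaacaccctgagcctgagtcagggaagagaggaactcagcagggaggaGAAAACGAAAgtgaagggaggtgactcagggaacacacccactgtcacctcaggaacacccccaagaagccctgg
Xaf1: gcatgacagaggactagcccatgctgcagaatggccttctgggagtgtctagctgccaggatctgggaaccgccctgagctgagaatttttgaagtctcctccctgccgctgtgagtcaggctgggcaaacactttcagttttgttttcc
A promoter was found for 8456 of the 11967 compared genes, 3.84% of which held this core. It was present in 9 of the 14 interferon-stimulated genes with a promoter, among them 2 of the 4 called in both layouts and 7 of the 10 others. Among all genes called in both layouts it was present in 8.39% of the 155 lower in CERM and 7.77% of the 103 higher in CERM. The palindromic estrogen response element GGTCANNNTGACC was found in none of the 8456 genes' windows, which says only that these letters are not there. A match describes letters and is not evidence of binding.

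Guanosine triphosphatase genes induced by interferon gamma did not move as 1 group. Gbp1 was far lower in CERM, while Irgm2, which acts on vacuoles of intracellular pathogens, was higher at 35.3 against 10.8 FPKM single-end and 25.4 against 11.2 FPKM paired-end, a difference of 1.62 and 1.12. Igtp, of the same family, stood at 66.7 against 22.99 FPKM single-end and 42.7 against 21.9 FPKM paired-end and was past 2-fold single-end only. The medians of the 10 genes were 0.60 and 0.09. Among MHC class II genes 2 of 8, H2-Eb1 and H2-Ob, were called lower in both layouts, against 1.95% of all genes, and the medians were -0.52 and -0.71. H2-Ob was admitted through BRCA alone, and its single-end difference was -0.87 after quantile normalization. Of the 6 class II genes with at least 1 FPKM in all columns, 1 was called lower in both. H2-Eb1, a beta chain gene, stood at 47.4 against 222 FPKM single-end and 71.0 against 231 FPKM paired-end, whereas the alpha chain gene H2-Aa stood at 291 against 262 FPKM single-end and 345 against 339 FPKM paired-end. None of the 7 compared genes of the MHC class I presentation list, of 12 listed, was called in either layout; H2-Q1, described with the genes highest in CERM, is not on that list.

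Cell division genes were lower in CERM. All 25 compared proliferation genes were below 0 in both layouts, where 5571 of the 11967 genes were below 0 in both, and the medians were -0.81 and -0.87. Over all genes 1.95% were called lower in both. Called lower in both were 4 of the 25 proliferation genes: Top2a, which untangles DNA, at 5.44 against 17.0 FPKM single-end and 4.62 against 16.02 FPKM paired-end; Birc5, the survivin gene, at 5.99 against 20.4 FPKM single-end and 6.19 against 18.8 FPKM paired-end; the replication helicase gene Mcm3 at 5.63 against 14.2 FPKM single-end and 6.08 against 14.1 FPKM paired-end; and Mcm2 at 4.35 against 9.81 FPKM single-end and 4.03 against 9.62 FPKM paired-end. The Mcm2 call is at the limit, with single-end differences of -0.95 after median-ratio scaling and -0.92 after quantile normalization. Mki67, the Ki-67 gene, stood at 5.16 against 10.98 FPKM single-end and 4.02 against 10.6 FPKM paired-end, with differences of -0.96 and -1.21. Ccnd1, the cyclin D1 gene, stood at 23.8 against 56.1 FPKM single-end and 26.4 against 56.7 FPKM paired-end, and Cdkn2a, which encodes the cell cycle inhibitors p16 and p19Arf, at 0.413 against 8.14 FPKM single-end and 0.532 against 7.18 FPKM paired-end. CERM was lower for the cyclin and for the inhibitor in both layouts, although the paired-end difference of Ccnd1 was -0.99 after median-ratio scaling. Cdkn2a, below 1 FPKM in both CERM columns, was admitted through BRCA alone, which fixed its direction.

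Luminal epithelial genes were lower in CERM as well, all 13 below 0 in both layouts, as were 5571 of the 11967 genes, with medians of -0.81 and -0.95. Cldn4, a tight junction claudin gene, stood at 12.4 against 54.9 FPKM single-end and 15.6 against 55.9 FPKM paired-end, and Spint1, a protease inhibitor gene of epithelia, at 11.02 against 23.2 FPKM single-end and 9.13 against 22.5 FPKM paired-end. Of the 13 genes these 2 were called lower in both layouts, against 1.95% of all genes. The Spint1 call is at the limit, with single-end differences of -0.94 after median-ratio scaling and -0.96 after quantile normalization. Epcam, the epithelial adhesion gene, stood at 97.9 against 173 FPKM single-end and 90.3 against 170.3 FPKM paired-end, with differences of -0.81 and -0.91. Krt18 was the least apart, at 167 against 194 FPKM single-end and 191 against 191 FPKM paired-end. Of 10 basal and myoepithelial genes none was called in both layouts, and the medians were 0.17 and 0.28. Among luminal progenitor genes Gabrp, a GABA receptor subunit gene, stood at 2.76 against 11.2 FPKM single-end and 2.15 against 10.7 FPKM paired-end, Cd14 at 45.0 against 93.4 FPKM single-end and 40.0 against 88.1 FPKM paired-end, and Hey1, a Notch target gene, was higher in CERM at 10.03 against 3.61 FPKM single-end and 8.69 against 3.83 FPKM paired-end. The luminal list made up 0.151% and 0.147% of the summed FPKM of the compared genes in CERM and 0.271% and 0.265% in BRCA.

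Genes of the unfolded protein response were lower in CERM, with medians of -0.83 and -0.58 over 12 genes. Sdf2l1, a chaperone cofactor gene of the endoplasmic reticulum, stood at 8.14 against 28.2 FPKM single-end and 14.1 against 31.0 FPKM paired-end, and Creld2 at 14.9 against 37.2 FPKM single-end and 17.6 against 37.4 FPKM paired-end. Of the 12 genes these 2 were called lower in both layouts, against 1.95% of all genes. The paired-end difference of Creld2 was -0.97 after median-ratio scaling. Hspa5, the gene of the main chaperone BiP, stood at 141 against 336 FPKM single-end and 187 against 319 FPKM paired-end, and was called single-end only.

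Against this background, genes of hormone-sensing luminal cells included 4 that were higher in CERM in both layouts. Of 15 compared genes these 4 were called in each layout, against 1.31% of all genes called higher in both, and none was called lower. Cited1, a coregulator gene of the estrogen receptor, stood at 29.6 against 10.4 FPKM single-end and 40.4 against 8.94 FPKM paired-end, a difference of 1.43 and 2.06. Tnfsf11, the RANK ligand gene, stood at 7.28 against 1.15 FPKM single-end and 5.86 against 1.12 FPKM paired-end, with differences of 1.95 and 1.69. Areg, the amphiregulin gene, stood at 15.7 against 6.12 FPKM single-end and 26.8 against 6.19 FPKM paired-end, and Calca, the calcitonin gene, at 80.3 against 34.7 FPKM single-end and 109 against 32.9 FPKM paired-end. In both layouts each of the 4 was more than 2-fold above BRCA, which the call itself requires. The rest of the list did not follow as a whole, and its medians were 0.32 and 0.33. Pgr, the progesterone receptor gene, stood at 1.14 against 0.654 FPKM single-end and 2.19 against 0.667 FPKM paired-end, and Prlr, the prolactin receptor gene, at 9.87 against 9.75 FPKM single-end and 18.7 against 9.15 FPKM paired-end; neither was called. Foxa1, the pioneer factor gene of the estrogen receptor, stood at 7.71 against 5.82 FPKM single-end and 11.5 against 5.51 FPKM paired-end. For Pgr, Prlr and Foxa1 the BRCA values repeated and the CERM values were higher paired-end.

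The gene highest in CERM by this measure was Ercc2, a helicase gene of transcription and DNA repair, at 141 against 4.79 FPKM single-end and 308 against 4.501 FPKM paired-end. Its direction repeated, but its CERM value was 2.18 times as high paired-end as single-end. Others with small values in BRCA were Gchfr, which regulates tetrahydrobiopterin synthesis, at 23.6 against 1.16 FPKM single-end and 16.2 against 1.28 FPKM paired-end; Rarres1, a retinoic acid-induced gene, at 12.8 against 0.813 FPKM single-end and 13.9 against 1.04 FPKM paired-end; St6galnac1, a sialyltransferase gene, at 6.55 against 0.166 FPKM single-end and 5.02 against 0.175 FPKM paired-end; and the receptor gene Mrgprg at 18.8 against 1.17 FPKM single-end and 11.4 against 1.13 FPKM paired-end. In each of these genes both CERM values lay above both BRCA values, as the ranking picks such genes. Inmt, a methyltransferase gene, stood at 35.3 against 6.28 FPKM single-end and 33.3 against 5.20 FPKM paired-end. Ear11, an eosinophil-associated ribonuclease gene, stood at 77.1 against 7.76 FPKM single-end and 47.1 against 6.90 FPKM paired-end. Trim12a stood at 7.63 against 0.0404 FPKM single-end and 6.90 against 0.00590 FPKM paired-end and the nonclassical MHC class I gene H2-Q1 at 8.47 against 0.421 FPKM single-end and 4.46 against 0.174 FPKM paired-end. Ear11, Trim12a and H2-Q1 have near-identical copies that may share reads. Cd209a, a dendritic cell lectin gene, stood at 6.72 against 0.404 FPKM single-end and 5.31 against 0.454 FPKM paired-end. St6galnac1, Trim12a, H2-Q1 and Cd209a were below 1 FPKM in both BRCA columns. They were admitted through CERM alone, which fixed their direction.

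Low levels of hair genes were seen in the CERM columns. This group was formed by symbol after the values were seen, so it is a description. The 20 compared Krtap genes, which encode the matrix proteins of the hair shaft, were all below 1 FPKM in both BRCA columns and so were admitted through CERM alone, which fixed their direction. For the 13 never listed at 0, differences ran from 1.23 to 4.13 single-end and from 0.97 to 3.53 paired-end. Krtap7-1 stood at 18.6 against 0.115 FPKM single-end and 11.8 against 0.107 FPKM paired-end, Krtap8-1 at 17.5 against 0.128 FPKM single-end and 10.98 against 0.0985 FPKM paired-end and Krtap3-1 at 8.51 against 0.631 FPKM single-end and 6.81 against 0.445 FPKM paired-end. The hair follicle keratin genes Krt71, at 3.32 against 0.229 FPKM single-end and 2.12 against 0.203 FPKM paired-end, and Krt25, at 2.81 against 0.129 FPKM single-end and 1.85 against 0.129 FPKM paired-end, moved with them. Of 7 compared skin and hair list genes these 2 were called higher in both layouts, against 1.31% of all genes. Both were admitted through CERM alone, and 0 of the 5 with at least 1 FPKM in all columns were called. For this list the summed FPKM was 40.6 and 33.7 in CERM and 36.8 and 35.5 in BRCA. The epidermal gene Lor had at most 0.202 FPKM in any column, and Krt2 was listed at 0 in both BRCA columns and the paired-end CERM column. All these genes are low, and the part of skin tissue in them was not tested.

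Skeletal muscle genes were higher in CERM, and all 15 were above 0 in both layouts, as were 3913 of the 11967 genes. The single-end columns called 14 of the 15 higher and the paired-end columns 5, against 3.02% and 2.47% of all genes, and the medians were 1.20 and 0.88. Mylpf, a fast myosin light chain gene, stood at 4039.6 against 1601 FPKM single-end and 3459 against 1507 FPKM paired-end, and Pvalb, the calcium buffer gene parvalbumin, at 2483 against 1054 FPKM single-end and 1871 against 893 FPKM paired-end. Acta1, the skeletal actin gene, stood at 10177 against 3975 FPKM single-end and 7354 against 3999 FPKM paired-end, and was called single-end only. The perinatal myosin gene Myh8 had larger differences, 2.32 and 2.34, at 9.18 against 1.04 FPKM single-end and 6.35 against 0.448 FPKM paired-end. These calls lie close to 2-fold: in both layouts 5 were called, 7 after median-ratio scaling and 0 after quantile normalization, where the medians were 0.74 and 0.57. Muscle genes made up 10.3% and 8.05% of the summed FPKM in CERM and 4.99% and 4.73% in BRCA. The 8 Schwann cell genes had medians of 0.44 and 0.38. The part of muscle tissue taken with the gland was not tested.

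White adipocyte genes were slightly higher in CERM, all 14 above 0 in both layouts, against 3913 of all 11967 genes, with medians of 0.61 and 0.54. Of the 14 only Retn, the resistin gene, was called higher in both layouts, against 1.31% of all genes. Retn stood at 523 against 96.7 FPKM single-end and 477 against 87.8 FPKM paired-end, with differences of 2.42 and 2.43. Adiponectin (Adipoq) stood at 1058 against 649 FPKM single-end and 1242 against 600.0 FPKM paired-end and the lipase gene Lpl at 748 against 494 FPKM single-end and 1053 against 484 FPKM paired-end. Lep, the leptin gene, stood at 95.8 against 55.4 FPKM single-end and 252 against 54.8 FPKM paired-end: BRCA repeated, while CERM was 2.63 times as high paired-end as single-end. For Cfd, the adipsin gene, CERM was instead lower paired-end than single-end, at 3228 against 1487 FPKM single-end and 2010.4 against 1439 FPKM paired-end.

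**Figure D3:**
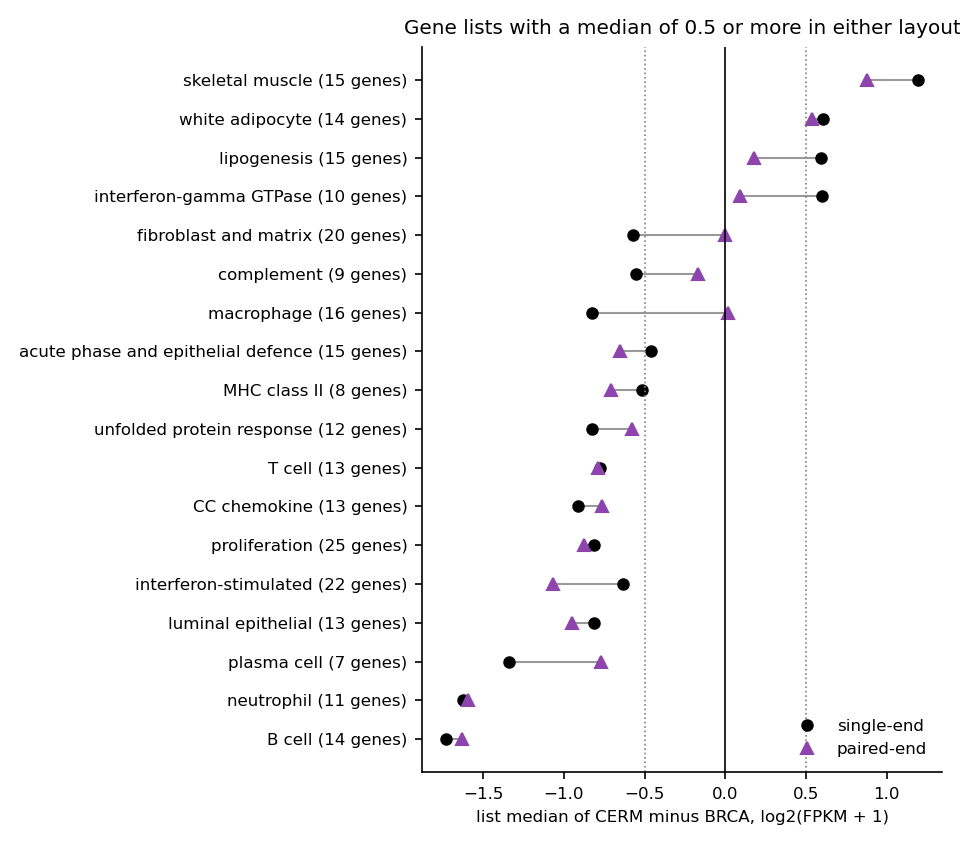
Median CERM minus BRCA difference on the log2(FPKM + 1) scale of each gene list with a median of at least 0.5 in size in either layout, circles for single-end and triangles for paired-end, joined by a line, with the number of compared genes in each list. The B cell, T cell, neutrophil, proliferation and luminal epithelial medians stay close, while the plasma cell median moves from -1.34 to -0.77, the macrophage median moves from -0.83 to 0.02 (-0.04 after quantile normalization) and the fibroblast and matrix median from -0.57 to -0.00.

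Most of the disagreement between layouts lay in the CERM columns. The paired-end minus single-end shift on the log2(FPKM + 1) scale had a median of -0.07 in CERM with quartiles of -0.21 and 0.08, and a median of -0.04 in BRCA with quartiles of -0.09 and 0.01. The interquartile range was 0.29 in CERM and 0.10 in BRCA. At least 2-fold shifts were found for 293 genes in CERM, 195 of them upward, and for 161 in BRCA, 75 of them upward. The labels give BRCA 2 libraries in either layout, and CERM 2 single-end and 3 paired-end ones; which libraries the columns share is unstated in the labels, and the part of the uneven CERM number was not tested. The difference between genotypes itself moved by 2-fold or more in 218 genes, upward in 180 and downward in 38. In 169 of the 218 the CERM columns were further apart than the BRCA columns. Small RNA loci made up 42 of the 218.

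**Figure D4:**
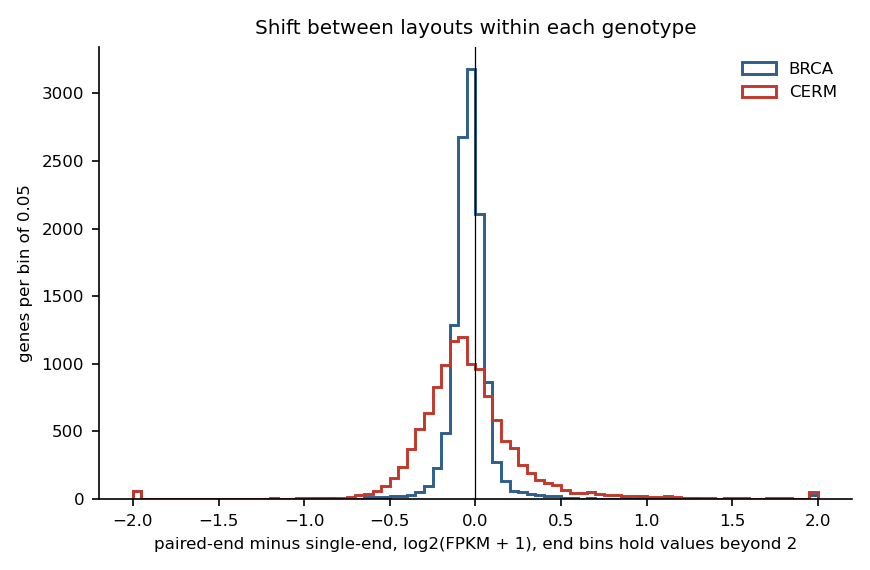
Number of genes by the shift from single-end to paired-end on the log2(FPKM + 1) scale in bins of 0.05, for BRCA (blue) and CERM (red), 11967 genes each; the end bins hold all values beyond 2. The BRCA shifts are narrow, with quartiles of -0.09 and 0.01, and the CERM shifts are wider, with quartiles of -0.21 and 0.08 and a longer upper tail.

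Among the compared genes, calls of lowly expressed genes were repeated more often than those of highly expressed ones, an order that the filter favours. Of the genes with a mean below 2 FPKM, 72.7% of 132 single-end calls were repeated, and the share was 63.1% of 168 between 2 and 5 FPKM. It was 50.7% of 219 between 5 and 20 FPKM and 40.8% of 130 between 20 and 100 FPKM. At 100 FPKM and above it was 32.4% of 74. The paired-end calls gave the same order, from 82.8% of 116 to 43.6% of 55. Adding 1 to FPKM admits only large ratios among the lowest genes. The filter also removed genes with at least 1 FPKM in only 1 column, whose calls cannot repeat. Without it 49.7% of all single-end calls were repeated, against 53.9% with it. The shares by level therefore do not show that low genes repeat better.

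Macrophage genes failed between layouts: they were lower in CERM single-end and split in both directions paired-end. Of 16 genes, 4 were called lower single-end with none higher, and 3 were called higher paired-end with 2 lower. Over all genes, 3.02% were called lower single-end, and 2.47% higher and 2.97% lower paired-end. The medians were -0.83 and 0.02, the latter -0.04 after quantile normalization of the columns, and -0.86 and 0.04 without Mpeg1, a pore-forming protein gene that was listed at 0 in both paired-end columns. Gpnmb, a glycoprotein gene of lipid-laden macrophages, stood at 5.14 against 6.39 FPKM single-end and 102 against 6.38 FPKM paired-end, and Trem2, a lipid-sensing receptor gene, at 2.65 against 6.01 FPKM single-end and 35.8 against 5.68 FPKM paired-end. Emr1, the gene of the F4/80 antigen, stood at 6.44 against 11.9 FPKM single-end and 25.6 against 11.2 FPKM paired-end. In each case the 2 BRCA columns were nearly equal, the single-end CERM column lay below them and the paired-end CERM column above. The same held for the lysosomal protease gene Ctss at 77.1 against 165 FPKM single-end and 254 against 158 FPKM paired-end, whereas for Itgam, the CD11b gene, the paired-end CERM value was barely above BRCA, at 3.33 against 7.83 FPKM single-end and 8.83 against 7.95 FPKM paired-end. Itgax, the CD11c gene on the dendritic cell list, stood at 2.75 against 4.13 FPKM single-end and 12.3 against 4.12 FPKM paired-end.

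Some genes picked because their layouts disagreed lie outside the list and had the same pattern, which that choice favours. Mmp12, the macrophage elastase gene, stood at 2.38 against 5.18 FPKM single-end and 85.8 against 4.78 FPKM paired-end, with differences of -0.87 and 3.91. Atp6v0d2, a proton pump subunit gene of osteoclasts and macrophages, stood at 0.706 against 1.97 FPKM single-end and 29.4 against 1.77 FPKM paired-end. Ctsk, a collagen-degrading cathepsin gene, stood at 16.6 against 47.6 FPKM single-end and 89.5 against 44.2 FPKM paired-end and Clec4d, a lectin receptor gene of myeloid cells, at 0.448 against 1.97 FPKM single-end and 8.03 against 1.73 FPKM paired-end. Ctsk and Clec4d were the only genes that are not small RNA loci to be called in opposite directions. Of the 16 genes on the macrophage list, 7 stayed below 0 in both layouts. Nearly the whole list moved up, as 15 had a higher difference paired-end than single-end, against 5353 of all 11967 genes. C1qa, a complement gene, stood at 125 against 181 FPKM single-end and 133 against 180.4 FPKM paired-end. The related C1qb and C1qc moved further, with differences of -0.86 and -0.04 and of -0.61 and -0.20. Fcgr1, an antibody receptor gene, stood at 1.80 against 5.17 FPKM single-end and 2.33 against 5.81 FPKM paired-end. Cd14 and Marco were lower in CERM in both layouts. The calls of Fcgr1 and Cd14 are at the limit, with a paired-end difference of -0.91 for Fcgr1 after quantile normalization and a single-end one of -0.96 for Cd14 after median-ratio scaling. The summed FPKM of the macrophage list was 939 and 1894 in CERM and 1412 and 1344 in BRCA.

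**Figure D5:**
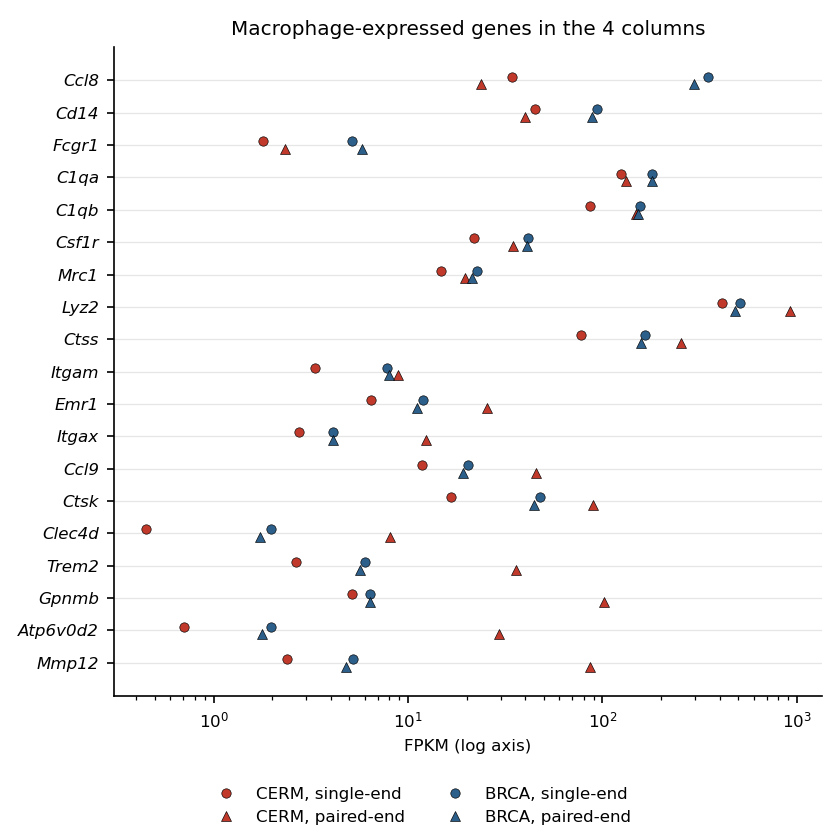
FPKM on a log axis in the 4 columns for 19 genes of macrophages and related myeloid cells, chosen after their values were seen, with circles for single-end, triangles for paired-end, red for CERM and blue for BRCA. From Lyz2 downward the red triangle is the rightmost point of its row, at 85.8 FPKM for Mmp12 against 2.38 to 5.18 in the other columns, while Ccl8 and Cd14 keep both red points to the left.

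Matrix genes shifted the same way by less. The medians of the 20 fibroblast and matrix genes were -0.57 and -0.00, the latter 0.08 after median-ratio scaling, and 17 of them had a higher difference paired-end, as had 5353 of the 11967 genes. Sparc, a collagen-binding matricellular gene, stood at 569 against 614 FPKM single-end and 1239.6 against 645 FPKM paired-end, and the proteoglycan gene Dcn at 425 against 395 FPKM single-end and 695 against 367 FPKM paired-end. Col3a1, a fibrillar collagen gene, stood at 219 against 478 FPKM single-end and 351 against 469 FPKM paired-end and was called single-end only. Of the 20 genes 10 were below 0 in both layouts, as were 5571 of the 11967 genes. One gene, Tnc, the tenascin C gene, was called lower in both, against 1.95% of all genes. Tnc stood at 4.64 against 15.0 FPKM single-end and 4.68 against 14.4 FPKM paired-end. Of the 17 compared genes of the matrix protease list, Mmp13 and Mmp7 were called lower in both, against 1.95% of all genes. However, both were admitted through BRCA alone, and the paired-end difference of Mmp13 was -0.94 after quantile normalization. Timp4, a protease inhibitor gene, was the only one called higher in both, against 1.31% of all genes. Timp4 stood at 55.2 against 24.2 FPKM single-end and 69.5 against 23.3 FPKM paired-end. Mmp3, the stromelysin gene, stood at 15.9 against 67.7 FPKM single-end and 34.2 against 65.8 FPKM paired-end, past 2-fold single-end only. Complement genes had medians of -0.55 and -0.17, and C6 stood at 0.984 against 4.38 FPKM single-end and 5.42 against 4.09 FPKM paired-end. Among acute phase genes Saa3, a serum amyloid gene of macrophages and adipocytes, stood at 1.26 against 21.7 FPKM single-end and 10.8 against 18.9 FPKM paired-end, and Hp, the haptoglobin gene, at 209.9 against 630.0 FPKM single-end and 397 against 623 FPKM paired-end; the call was made single-end only for both.

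Milk and lipid synthesis genes shifted in the opposite direction. All 16 milk genes had a lower difference paired-end than single-end, as had 6614 of the 11967 genes, and the medians were 0.48 and -0.08, the latter 0.01 after median-ratio scaling. Csn2, the beta casein gene, stood at 5499.7 against 3279 FPKM single-end and 3169.9 against 3027 FPKM paired-end, and Csn1s2a at 4411 against 2153 FPKM single-end and 2568 against 1996 FPKM paired-end. Of the 16 milk genes, 2 were called higher in CERM in both layouts and 3 lower, against 1.31% and 1.95% of all genes. The lowest was Glycam1, given above with the lymph node genes, with differences of -2.95 and -3.59. Btn1a1, the butyrophilin gene of the milk fat globule, was higher in CERM in both layouts at 102 against 18.3 FPKM single-end and 67.0 against 17.5 FPKM paired-end, as was the alpha-lactalbumin gene Lalba at 227 against 46.3 FPKM single-end and 132 against 43.1 FPKM paired-end. Wap, the whey acidic protein gene, was lower in both at 109 against 225 FPKM single-end and 61.8 against 206 FPKM paired-end, with a single-end difference of -0.97 after median-ratio scaling. The 15 lipogenesis genes had medians of 0.59 and 0.17 and no call in either layout, with Acly, which makes acetyl-CoA from citrate, at 343 against 185 FPKM single-end and 224 against 182 FPKM paired-end. Ucp1, the uncoupling protein gene of brown fat, stood at 349 against 485 FPKM single-end and 214 against 473 FPKM paired-end, past 2-fold paired-end only. In each of these genes the CERM value was lower paired-end than single-end, and the BRCA value changed by less.

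Isolated genes also failed between layouts. Tsr1, a ribosome maturation gene, stood at 404 against 11.9 FPKM single-end and 5.72 against 8.29 FPKM paired-end, Zbtb20, a transcription factor gene, at 134 against 5.09 FPKM single-end and 4.38 against 4.95 FPKM paired-end, and the arginine methyltransferase gene Prmt2 at 52.9 against 10.6 FPKM single-end and 8.15 against 10.3 FPKM paired-end. Here 1 CERM column, the single-end one, stood far above the other 3. For Ndufs5, a subunit gene of respiratory complex I, it was the paired-end CERM column, at 4.92 against 5.50 FPKM single-end and 90.6 against 4.85 FPKM paired-end. In Irak1, a kinase gene of Toll-like receptor signalling, and Glce, an enzyme gene of heparan sulfate synthesis, the single-end BRCA column stood apart, at 22.3 against 173 FPKM single-end and 21.9 against 27.8 FPKM paired-end and at 7.16 against 48.7 FPKM single-end and 7.09 against 6.62 FPKM paired-end. Apba3, an adaptor gene, had a high paired-end BRCA value, at 38.4 against 26.1 FPKM single-end and 15.4 against 166 FPKM paired-end. With 1 value per column these cannot be told from errors of estimate, and Ercc2, whose CERM values differ by more than 2-fold, carries the same limit.

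Calls of small RNA loci were seldom repeated. Of 80 compared microRNA and small nucleolar RNA loci, 16 were called higher and 14 lower single-end, 17 higher and 14 lower paired-end, and 5 in both layouts with 1 direction. Over all compared genes, 6.04% were called single-end, 5.44% paired-end and 3.26% in both with 1 direction. Of the 11 genes called in opposite directions 9 were of this kind. Snord69 stood at 842 against 195 FPKM single-end and 8964 against 18587 FPKM paired-end, Snord47 at 373 against 86.5 FPKM single-end and 2075 against 5468 FPKM paired-end and Mir682 at 64.2 against 8.15 FPKM single-end and 30.5 against 65.0 FPKM paired-end. The other 6, Snord52, Snord49a, Snord35a, Mir5098, Mir5109 and Mir680-1, were each listed at 0 in at least 1 column, and no ratio is given for them. These RNAs are shorter than the fragments of a polyadenylated RNA library, and many lie within introns or exons of host genes.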

How the data were processed

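RNA with poly(A) tails from whole mammary glands was sequenced, and FPKM values were deposited in 1 table, which has 1 pooled column per genotype and layout. TopHat, Cufflinks, FastQC, Trim Galore and the mm9 genome are listed in the submitters' processing notes, without versions; the labels do not say how the libraries of a column were pooled. Loci without a name, with several symbols or sharing a symbol were left out, and genes with at least 1 FPKM in 2 of the 4 CERM and BRCA columns were kept. CERM minus BRCA was computed on log2(FPKM + 1) with Python 3.11.15 and pandas 2.3.3 and called at 2-fold, a computation also tested on simulated data. Values were used as deposited. No test was possible, because each group has 1 column, and the depth is unknown. The labels do not say which libraries are separate animals.

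The comparison, its 50 gene lists and its members were chosen with earlier results of these data known. Named genes were the 14 highest and 14 lowest called in both layouts, ranked by the smaller difference, the leading members of each list, and the most unlike genes; genes at 0 and names without known identity were not ranked. Other genes in the text were chosen after their values were seen, and some that the rule picked are not reported here. Alternatives were other pseudocounts, filters, scalings and folds.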

Additional observations from a re-analysis of the deposited data

Results flagged for a closer look

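Calls past 2-fold in opposite directions, with no column at 0, were made for 5 genes, and the difference between layouts was not tested for any of them, because each column holds 1 value. The paired-end CERM minus BRCA difference exceeded the single-end one by 2.76 for Clec4d and by 2.47 for Ctsk on the log2(FPKM + 1) scale. In both genes the BRCA columns were nearly equal and the CERM columns lay on either side of them. For the small RNA loci the paired-end less single-end value was -3.49 for Snord47, -3.90 for Mir682 and -3.16 for Snord69.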

How the results depend on the processing

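No paired analysis was possible because each genotype and layout has 1 pooled column, and leaving out a replicate could not be run for the same reason. No called value changed sign under any alternative, and 38 of 70 recomputed counts stayed within 1.5 times the main count; the remaining 32 follow. With a pseudocount of 0.1, 683 genes were lower single-end and 680 paired-end, 243 higher and 465 lower in both, and 19 opposite. With a pseudocount of 5, 165 were higher and 110 lower single-end, 129 higher and 96 lower paired-end, 48 higher and 60 lower in both, and 7 opposite. With at least 1 FPKM in all 4 columns, 217 were lower single-end and 228 paired-end, 92 higher and 128 lower in both, and 4 opposite. With at least 10 FPKM in 2 columns, 209 were higher and 144 lower single-end, 152 higher and 146 lower paired-end, and 75 higher and 83 lower in both. Calls at 1.5-fold gave 871 higher and 1182 lower single-end, 894 higher and 1185 lower paired-end, 520 higher and 802 lower in both, and 45 opposite. Opposite calls were 5 without genes listed at 0 and 2 without names of unknown identity, an alternative chosen after seeing the data. Of 106 named genes called in both layouts, 49 lost a call with a pseudocount of 5, 16 after quantile normalization and 8 after median-ratio scaling. Of 882 recomputed list medians 731 moved little; signs near 0 turned under a scaling in lists such as oxidative phosphorylation (0.18 to -0.05 single-end) and brown adipocytes (0.18 to -0.02 single-end). The cause of these changes was not tested. The unknown depth limits low genes most.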

Other observations

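Of the Wnt and Notch list, 3 genes were lower in CERM in both layouts. Lef1, a transcription factor gene of the Wnt pathway that lymphocytes also express, stood at 0.405 against 3.21 FPKM single-end and 0.251 against 2.60 FPKM paired-end, CERM first. Tcf7, of the same family and a T cell gene, stood at 3.46 against 12.2 FPKM single-end and 3.08 against 11.6 FPKM paired-end. Wnt7b, a ligand gene of luminal cells, stood at 1.03 against 4.73 FPKM single-end and 1.45 against 4.803 FPKM paired-end. Lef1 was admitted through BRCA alone, and of the 16 list genes with at least 1 FPKM in all columns 2 were called lower in both. The Wnt target gene Axin2 stood at 4.71 against 7.09 FPKM single-end and 3.60 against 7.08 FPKM paired-end and was not called. Of 20 genes these 3 were called lower in both layouts, against 1.95% of all genes, and Hey1 alone was called higher, against 1.31%, with list medians of -0.28 and -0.27. Their part in the lymphocyte differences was not tested.

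Homologous recombination and repair genes were slightly lower in CERM, with medians of -0.37 and -0.36 over 16 genes. Of these 1, Brca1, was called lower in both layouts, against 1.95% of all genes. Of the 16, 5 were admitted through BRCA alone, and of the 9 with at least 1 FPKM in all columns 0 were called in both. Of 18 p53 target genes 1 was called lower in both, against 1.95% of all genes. It was Pmaip1, a cell death gene, at 0.761 against 3.95 FPKM single-end and 1.02 against 3.76 FPKM paired-end. Of the 17 with at least 1 FPKM in all columns, 0 were called in both. Cdkn1a, the p21 gene, stood at 28.6 against 16.2 FPKM single-end and 36.1 against 16.3 FPKM paired-end, past 2-fold in the paired-end columns only. All 20 cytosolic ribosomal protein genes were above 0 in both layouts, as were 3913 of all 11967 genes, with medians of 0.21 and 0.32, and none was called; the single-end median was -0.00 after quantile normalization. Dusp1, an early response phosphatase gene, was higher in CERM in both layouts at 42.3 against 19.6 FPKM single-end and 38.2 against 17.97 FPKM paired-end, and Nr4a3, an early response nuclear receptor gene, was lower at 0.921 against 3.71 FPKM single-end and 0.738 against 4.005 FPKM paired-end. Nr4a3 was admitted through BRCA alone.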
